A study of Homo sapiens with 12 samples.

Results

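The mitochondrial translation factors are the 10 nuclear-encoded proteins that run initiation, elongation, termination and ribosome recycling inside mitochondria. They were taken by gene symbol from a ribosome profiling table, in which all 10 were found among 19219 gene rows. The symbols are TUFM, TSFM and GFM1 (elongation), MTIF2 and MTIF3 (initiation), MTRF1, MTRF1L and ICT1 (release and rescue), and MRRF and GFM2 (recycling). RefSeq entries were matched for all 10 by Entrez ID, and 1 symbol differed, ICT1 being listed there as MRPL58.

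Ribosome profiling counts the mRNA fragments shielded by ribosomes, so a gene's footprint density reflects the ribosomes on all copies of its mRNA per unit of length. It depends on the amount of mRNA as well as on the ribosomes per copy, and the means used here do not separate these. The cells were HEK293, an established human embryonic kidney line grown in DMEM with serum, in 12 libraries. Wild-type cells received cycloheximide, which freezes elongating ribosomes (5 libraries), or harringtonine together with cycloheximide (3 libraries), where harringtonine holds ribosomes at initiation while earlier ones run off. Cells with a CRISPR-Cas9 knockout of CNBP, a zinc-finger protein that binds G-rich RNA, received the same treatments (3 libraries and 1 library), and the series asks how CNBP bears on translation. The headers give both knockout columns the same knockout name, how many clones were used is not stated, and a clone's own differences cannot be told apart from the knockout.

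The table holds 1 mean density per group and no value per library. There is therefore no standard deviation between replicates and no test between groups, and the word called is used below for a ratio of at least 2-fold. Intervals are 95% counting intervals on effective reads, which are the density times the listed transcript length divided by what 1 read was worth. They leave out the spread between libraries, so an interval clear of 0 says only that counting error alone does not span 0. Nothing in the labels says that the libraries of a group came from separate cultures.

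The table came to 2157981 effective reads for cycloheximide wild type against 866149 for its knockout, and to 1139541 against 406303 for harringtonine. Ratios are log2 of one mean over another relative to the median of 6045 genes, those above the median level of all usable genes with 4 means above 0. On the scale as deposited, ratios of knockout over wild type are lower by 0.44 with cycloheximide and by 0.28 with harringtonine. Of the HEK293 markers, VIM had mean densities between 1.43 and 3.95 over the groups, and NEFM is listed at 0 in all of them. Of 8 markers of other cell types 0 passed the filter on low values, and the blood marker PTPRC and the liver marker ALB are listed at 0 in every group. CNBP itself had 3.73 and 2.20 with cycloheximide and 3.27 and 2.36 with harringtonine. Relative to the median gene its log2 ratio of the libraries labelled knockout to wild type was -0.32 (interval -0.58 to -0.07) with cycloheximide and -0.19 (-0.59 to 0.20) with harringtonine. Footprints on CNBP were thus present in the libraries labelled knockout, and the word knockout below stands for that label.

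Mitochondria keep their own ribosomes, which make a small set of membrane subunits of the respiratory chain from mitochondrial DNA. The factors that serve those ribosomes are encoded in the nucleus, translated in the cytosol and imported. The footprints described here are thus those of cytosolic ribosomes making the factors, not of mitochondrial ribosomes using them. TUFM, the mitochondrial EF-Tu, brings aminoacyl-tRNA to the ribosome, TSFM, the EF-Ts, recharges TUFM with GTP, and GFM1 moves the ribosome along. MTIF2 places the initiator tRNA, MTIF3 helps to keep the ribosomal subunits apart and to proofread initiation, and MRRF with GFM2 splits the ribosome after release.

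In wild type with cycloheximide the factors covered a wide range of densities, led by TUFM. TUFM had a mean density of 3.48, above 96.5% of the genes compared. TSFM (0.633) and ICT1 (0.612) came next and were above 79.1% and 78.1% of them. MTIF2 (0.399), GFM1 (0.351) and GFM2 (0.332) lay close to each other, above the median gene's 0.272. MRRF (0.175), MTRF1 (0.157), MTIF3 (0.116) and MTRF1L (0.0717) were below that median. Of the 9 pairs of neighbours in this order, 3 had a ratio whose interval excluded 1, namely TUFM over TSFM, ICT1 over MTIF2 and GFM2 over MRRF. TUFM made up 55.0% of the summed density of the 10 factors. In the other groups it made up 61.1% (knockout, cycloheximide), 52.2% (wild type, harringtonine) and 59.2% (knockout, harringtonine). The densities are per longest listed transcript, which need not be the length the authors divided by, so levels of different genes are approximate.

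**Figure D1:**
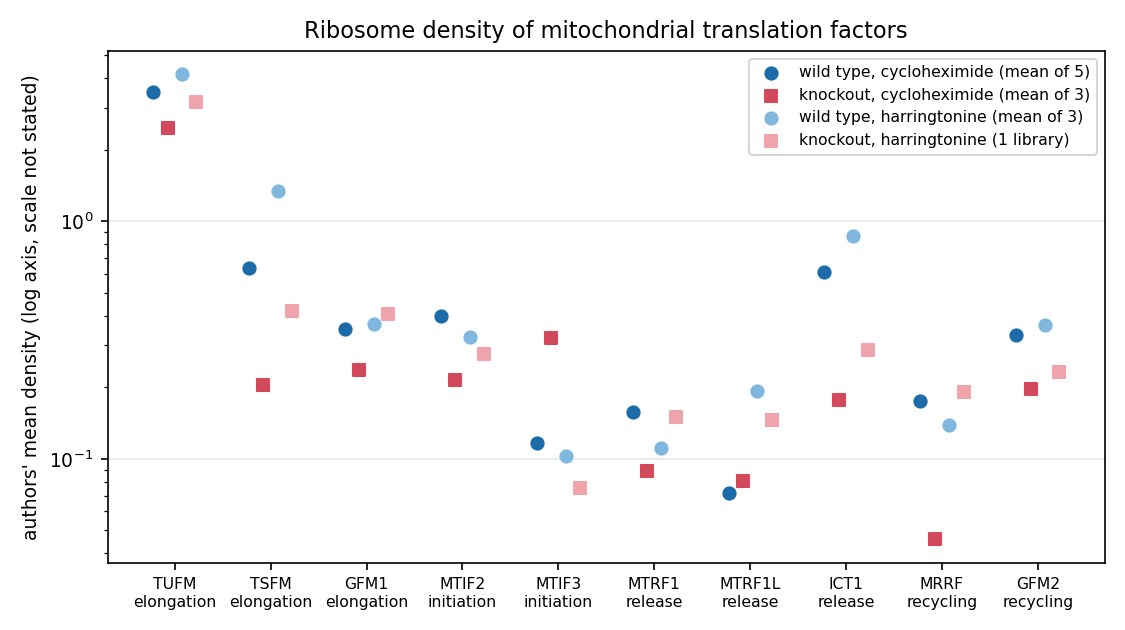
Authors' mean ribosome density (log axis) of the 10 mitochondrial translation factors in the 4 groups, with 1 point per group mean and no error bar because no value per library was used. TUFM lies above all others in every group, between 2.46 and 4.17. The knockout points of TUFM, TSFM, MTIF2, ICT1 and GFM2 lie below both of their wild-type points. The median densities of the genes compared do the same, and the share of all genes that do was not counted.

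In the knockout with cycloheximide the order below TUFM was different. MTIF3, which is ninth in wild type, was second at 0.323. GFM1 (0.237), MTIF2 (0.215), TSFM (0.204), GFM2 (0.197) and ICT1 (0.177) formed a close run, and MTRF1 (0.0888), MTRF1L (0.0807) and MRRF (0.0457) ended it. Only the step from TUFM to MTIF3 had an interval clear of 1 among the 9 neighbouring pairs. In this group 3 of the 10 factors stood above the median gene, against 6 in wild type. With harringtonine 6 stood above it in wild type and 5 in the knockout.

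Depth differed strongly between the members. With cycloheximide TUFM rested on 740 effective reads (wild type) and 230 (knockout), while harringtonine gave it 314 and 124. In the same order TSFM rested on 142, 20.1, 107 and 17.4. No member had under 10 effective reads in wild type with cycloheximide, 3 had in the knockout with cycloheximide, 3 in wild type with harringtonine and 4 in the knockout with harringtonine. The fewest were the 1.57 of MTIF3 in the single knockout library with harringtonine.

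The comparison of knockout with wild type asks whether the footprint density of these factors differs in the libraries labelled as CNBP knockout. Whether a difference lies in the amount of mRNA or in the ribosomes per mRNA was not tested. With cycloheximide TSFM, ICT1 and MRRF were lower in the knockout by more than 2-fold relative to the median gene and MTIF3 was higher, by a measure that called 3.24% of the genes compared lower and 4.43% higher. With harringtonine TSFM and ICT1 were again lower by more than 2-fold, and no factor was higher by that much, beside 6.58% of genes lower and 6.72% higher. TUFM, the best counted factor, was close to the median gene with both treatments.

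TUFM (ENSG00000178952, hg19 chromosome 16, 28853732 to 28857729, minus strand) went from a wild-type mean density of 3.48 to 2.46 in cycloheximide-treated knockout cells, and from 4.17 to 3.17 in harringtonine-treated ones. The knockout ratio relative to the median gene was -0.06 in log2 (interval -0.28 to 0.16) for cycloheximide. For harringtonine it was -0.11 (-0.42 to 0.19). The cycloheximide value took the other sign when centred within the decile of level (0.17) or on the genes above a mean density of 1 (0.18), and was -0.50 as deposited.

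TSFM (ENSG00000123297, hg19 chromosome 12, 58176372 to 58201854, plus strand) had a wild-type mean density of 0.633 against 0.204 for knockout cells under cycloheximide. With harringtonine they were 1.35 and 0.419. Both knockout means lie below both wild-type means on the scale as deposited, as they also do for TUFM, MTIF2, ICT1 and GFM2. Relative to the median gene its log2 ratio was -1.19 (interval -1.94 to -0.51) with cycloheximide, where 1.79% of the genes compared were lower still. With harringtonine it was -1.40 (-2.22 to -0.66), where 2.70% were lower. Centred instead on the genes with a mean density above 1, the cycloheximide value was -0.96 and no longer called. With a pseudocount of 1, larger than the knockout densities of TSFM themselves, the values were -0.36 and -0.67.

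GFM1 (ENSG00000168827, hg19 chromosome 3, 158362067 to 158410364, plus strand) had 0.351 and 0.237 with cycloheximide and 0.368 and 0.408 with harringtonine. Its relative log2 ratios were -0.13 (interval -0.68 to 0.39) and 0.43 (-0.28 to 1.12). Neither reached 2-fold, and both intervals span 0. The third elongation factor therefore had no called ratio in either treatment.

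The ratio of TUFM to TSFM within a group does not depend on a scale factor common to that group. The weight of each library in a group mean still enters, except in the group of 1 library. TUFM binds TSFM in the cycle that recharges it. In wild type with cycloheximide the density of TUFM was 5.51 times that of TSFM (interval 4.59 to 6.63), and in the knockout it was 12.1 times (7.66 to 20.1). With harringtonine it was 3.10 times (2.48 to 3.89) in wild type and 7.56 times (4.56 to 13.3) in the knockout. The intervals of wild type and knockout do not overlap within either treatment. The knockout ratio was larger by 1.14 on the log2 scale with cycloheximide (interval 0.43 to 1.84) and by 1.29 with harringtonine (0.50 to 2.08). Both differences follow from the TUFM and TSFM ratios given above and use the same means, so they are not a separate result. These 2 comparisons share no library, although whether the spread between libraries is smaller than the difference was not tested.

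**Figure D2:**
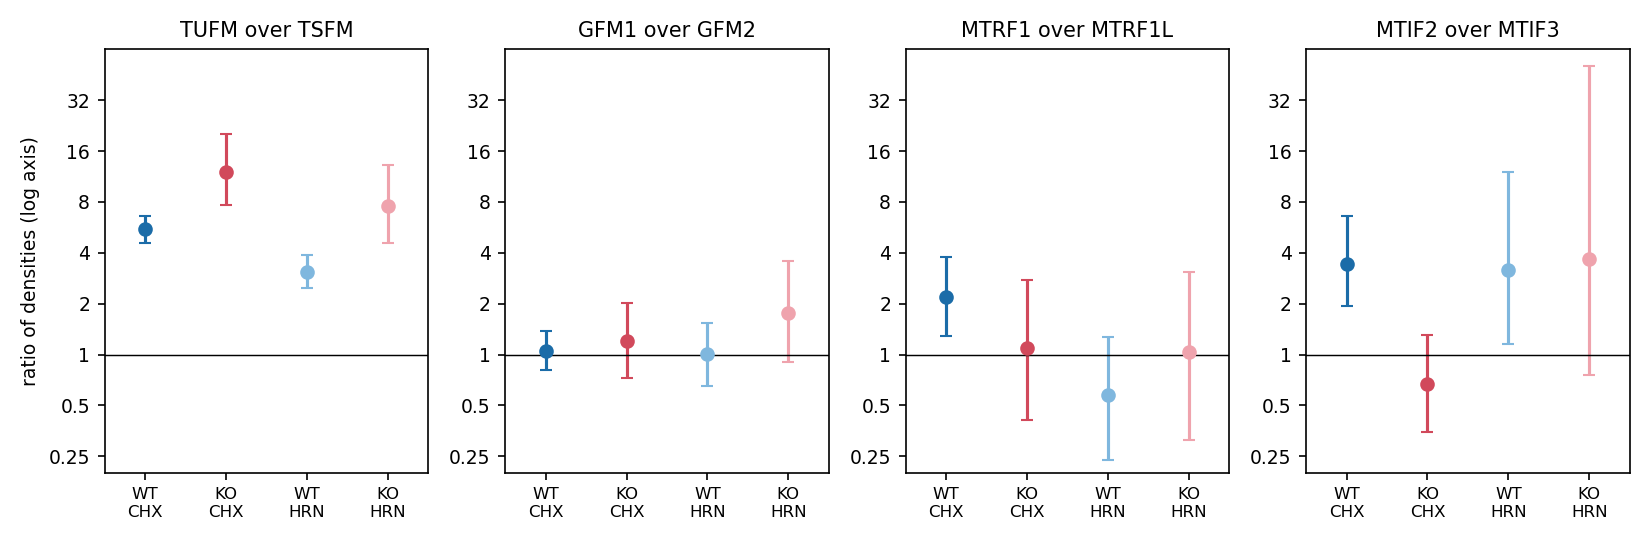
Ratio of mean densities between 2 factors within each group (log axis), with 95% counting intervals as bars, for TUFM over TSFM, GFM1 over GFM2, MTRF1 over MTRF1L and MTIF2 over MTIF3. WT is wild type, KO knockout, CHX cycloheximide and HRN harringtonine. The ratio of TUFM to TSFM is 12.1 and 7.56 in the knockout against 5.51 and 3.10 in wild type. The cycloheximide intervals of MTIF2 over MTIF3 also stand apart, at 3.44 for wild type against 0.666 for the knockout.

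The initiation factors differed from each other. MTIF2 (ENSG00000085760, hg19 chromosome 2, 55463731 to 55496483, minus strand) had 0.399 (wild type) and 0.215 (knockout) with cycloheximide, and 0.326 and 0.277 with harringtonine. Its relative log2 ratios were -0.45 (interval -1.09 to 0.15) and 0.05 (-0.92 to 0.95), and neither was called.

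MTIF3 (ENSG00000122033, hg19 chromosome 13, 28009776 to 28024739, minus strand) was the factor with the highest knockout ratio with cycloheximide. Its mean densities were 0.116 in wild type and 0.323 in the knockout, from 13.1 and 16.1 effective reads. The relative log2 ratio was 1.92 (interval 0.77 to 3.09), and 0.364% of the genes compared were higher. Of the genes compared 4.43% were at least 2-fold higher, but of all 13262 genes with a ratio 12.2% were. MTIF3 passed the filter at a geometric mean density of 0.130 against the limit of 0.114, and the high mean enters that value. With harringtonine its densities were 0.103 and 0.0750, with a ratio of -0.17 (-4.21 to 2.77) from 4.14 and 1.57 effective reads. The knockout with cycloheximide is thus the 1 group of the 4 in which MTIF3 was high, and the harringtonine ratio is too poorly counted to set beside it. A pseudocount of 1 brought the cycloheximide value to 0.33. The density of MTIF2 was 3.44 times that of MTIF3 (interval 1.94 to 6.62) in cycloheximide wild type and 0.666 times (0.35 to 1.31) in its knockout, a log2 difference of -2.37 (-3.57 to -1.16). With harringtonine the ratios were 3.17 and 3.69 (interval 0.76 to 50.7), and their intervals overlap. Which of the 3 knockout libraries carried the reads cannot be read from a mean.

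Among the release factors ICT1 had the low knockout ratios. ICT1, which frees peptides from stalled mitochondrial ribosomes and is also built into their large subunit, lies at hg19 chromosome 17, 73008765 to 73017356, plus strand (ENSG00000167862). Wild type had a mean density of 0.612 and the knockout 0.177 under cycloheximide, and under harringtonine they had 0.868 and 0.286. As with TSFM, TUFM, MTIF2 and GFM2, both knockout means lie below both wild-type means on the scale as deposited. The median densities of the genes compared do so too. The relative log2 ratios were -1.35 (interval -2.71 to -0.22) and -1.32 (-3.08 to 0.09), and 1.22% and 3.23% of the genes compared were lower. The knockout values rest on 7.11 and 4.82 effective reads, and the harringtonine interval includes 0. With a pseudocount of 1 the values were -0.37 and -0.48.

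MTRF1 and MTRF1L are related release factors, of which MTRF1L reads the standard stop codons of mitochondrial mRNAs. MTRF1 (ENSG00000120662, hg19 chromosome 13, 41790505 to 41837742, minus strand) had 0.157 and 0.0888 with cycloheximide and 0.111 and 0.150 with harringtonine. MTRF1L (ENSG00000112031, hg19 chromosome 6, 153308497 to 153323820, minus strand) had 0.0717 and 0.0807, and 0.193 and 0.146. Their relative log2 ratios with cycloheximide were -0.38 (interval -1.64 to 0.72) for MTRF1 and 0.62 (-0.45 to 1.61) for MTRF1L. With harringtonine they were 0.71 (-1.03 to 2.36) and -0.12 (-1.33 to 0.98). No interval is clear of 0, so a difference in either direction was not detectable at this depth. MTRF1L, with a geometric mean density of 0.113 over the groups against the limit of 0.114, fell just under the filter on low values. The other 9 factors passed it, and MTRF1L is given and counted all the same.

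The recycling factors were low and poorly counted in the case of MRRF. MRRF (ENSG00000148187, hg19 chromosome 9, 125026882 to 125085743, plus strand) had 0.175 (wild type) and 0.0457 (knockout) with cycloheximide, with 4.01 effective reads behind the knockout mean. Its relative log2 ratio was -1.50 (interval -3.44 to -0.01), and 0.794% of the genes compared were lower. With harringtonine the densities were 0.138 and 0.191 and the ratio was 0.75 (-0.88 to 2.30). The knockout was therefore the lower group in one treatment and the higher in the other. GFM2 (ENSG00000164347, hg19 chromosome 5, 74017029 to 74063196, minus strand) had 0.332 and 0.197, then 0.366 and 0.232. Its relative log2 ratios were -0.31 (-0.95 to 0.29) and -0.37 (-1.35 to 0.52), neither called. GFM2 is a paralog of GFM1, and the density of GFM1 over GFM2 was 1.06 (interval 0.82 to 1.37) for wild type against 1.20 (0.73 to 2.01) for knockout cells under cycloheximide. With harringtonine it was 1.01 (0.66 to 1.55) and 1.76 (0.90 to 3.58).

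**Figure D3:**
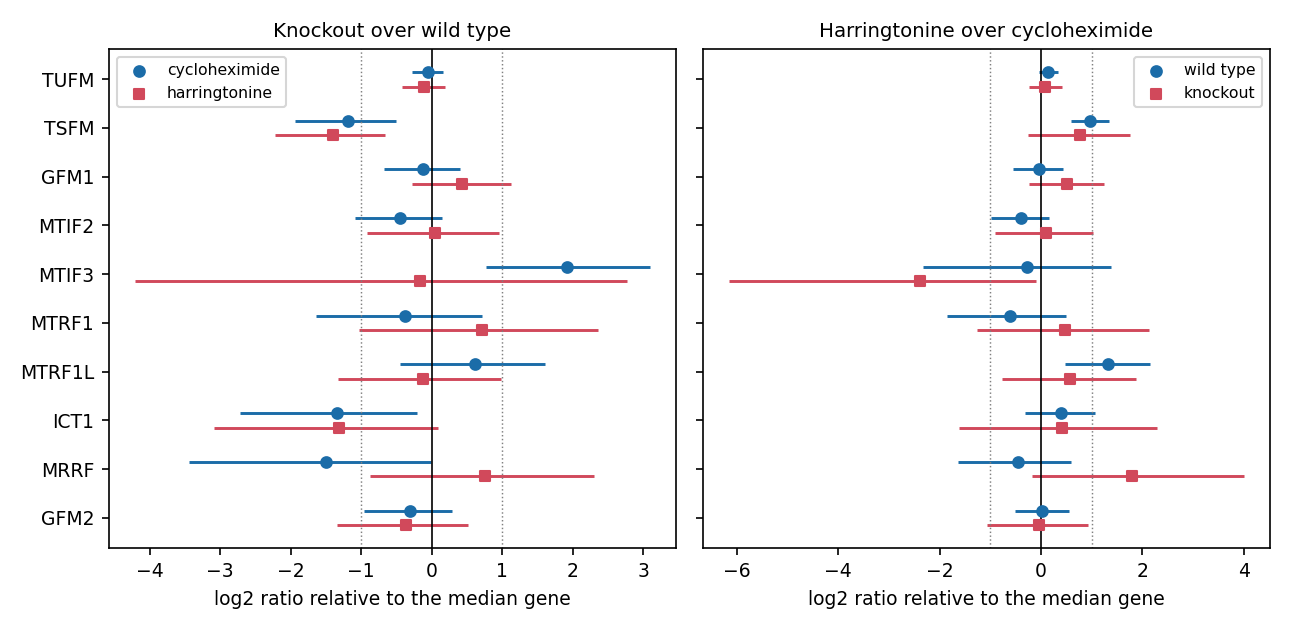
Log2 ratios of the 10 factors relative to the median gene, as points with 95% counting intervals, for knockout over wild type (left) and harringtonine over cycloheximide (right). Dotted lines mark 2-fold. TSFM is the factor whose knockout interval is clear of 0 with both treatments, at -1.19 and -1.40, and the intervals of MTIF3, MRRF and ICT1 are wide.

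Over all 10 factors, 3 were at least 2-fold lower in the knockout with cycloheximide and 1 was at least 2-fold higher. Among the 6045 genes compared 3.24% were lower and 4.43% higher by this measure, and among all 13262 genes with a ratio 7.85% and 12.2%. The median of the factors was -0.34, and 8 of the 10 were below the median gene. With harringtonine 2 factors were lower and 0 higher, where 6.58% and 6.72% of the genes compared were and 10.3% and 14.7% of all 12383 with a ratio, and the median was -0.12.

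TSFM and ICT1 were at least 2-fold lower in the knockout with both treatments. Of the 6045 genes, 20 were (0.331%), and these 2 are among them. The filter uses the knockout means and so removes genes that are low there, and of all 12091 genes with 4 means above 0 there were 144 (1.19%). Below the median gene in both treatments were 4 factors, TUFM, TSFM, ICT1 and GFM2, beside 28.4% of the 6045 genes compared. The remaining 6 factors were on opposite sides in the 2 treatments. Without that filter 0 of 70 mitochondrial ribosomal protein genes were at least 2-fold lower with both, 1 of 18 mitochondrial synthetase genes (NARS2, at -1.42 and -1.13) and 0 of 21 accessory factors. Whether the factors differ from those lists was not tested.

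**Figure D4:**
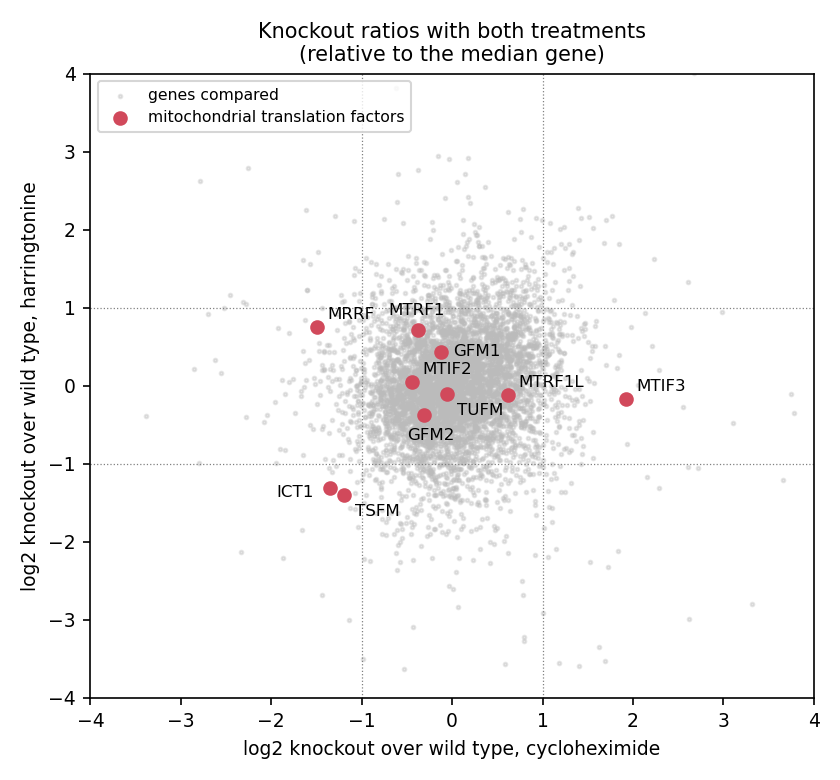
Log2 ratio of knockout over wild type with cycloheximide (horizontal) and with harringtonine (vertical), relative to the median gene, for the 6045 genes compared (grey) and the 10 factors (red). Dotted lines mark 2-fold, and 5 genes lie outside the plotted range. TSFM and ICT1 stand in the lower left corner, MTIF3 (1.92 and -0.17) to the right and MRRF (-1.50 and 0.75) at the upper left.

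Subtracting the cycloheximide knockout ratio from the harringtonine one gave a value at least 2-fold higher for 2 factors and lower for 1. Of the genes compared 9.41% and 10.7% were. MRRF was 2.25 (interval 0.21 to 4.29), MTRF1 was 1.09 (-0.73 to 2.92) and MTIF3 was -2.09 (-4.94 to 0.76). Only the interval of MRRF is clear of 0 among the 10. Of the genes compared 5.92% were at least 2-fold higher with an interval clear of 0, and 6.04% lower. For TSFM the difference was -0.21 (-1.20 to 0.79), for ICT1 0.03 (-1.76 to 1.82) and for TUFM -0.06 (-0.42 to 0.31). The point values of these 3 are near 0, but the intervals of TSFM and ICT1 also hold differences of 2-fold.

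The comparison of harringtonine with cycloheximide shows which factors kept more or fewer footprints when initiating ribosomes were held. In wild type MTRF1L was 1.32 (interval 0.48 to 2.15), from mean densities of 0.0717 and 0.193. TSFM followed at 0.98 (0.60 to 1.35), from 0.633 and 1.35, which 3.64% of the genes compared exceeded. These 2 are the factors whose interval is clear of 0. The others ranged from the -0.60 of MTRF1 (-1.85 to 0.49) to the 0.39 of ICT1 (-0.32 to 1.07). TUFM was 0.15 (-0.05 to 0.34). In all 1 factor, MTRF1L, was at least 2-fold higher and 0 lower, beside 3.41% and 3.31% of the genes compared. MTRF1L did not pass the filter behind those shares, and of the 9 factors that passed it 0 were called.

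In the knockout the same ratio was 0.76 for TSFM (interval -0.25 to 1.76) and 0.58 for MTRF1L (-0.76 to 1.86). It was highest for MRRF at 1.79 (-0.18 to 4.00), from mean densities of 0.0457 and 0.191. It was lowest for MTIF3 at -2.38 (-6.15 to -0.10), from 0.323 and 0.0750. By this measure 1 factor was at least 2-fold higher and 1 lower, beside 5.51% and 6.82% of the genes compared. These ratios use the same knockout means with cycloheximide as the knockout comparison, so the MRRF and MTIF3 values repeat the low and the high mean seen there.

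Other genes of mitochondrial translation give the setting, from lists chosen for this purpose and counted over every listed gene with a ratio, with no filter on low values. Of 71 mitochondrial ribosomal protein genes 2 were called higher and 4 lower in the knockout with cycloheximide, with a median of -0.10. The extremes were MRPS31 at -1.42 (interval -2.37 to -0.59) and MRPS17 at 1.84 (1.22 to 2.47). With harringtonine 1 of 70 was higher and 7 lower, with a median of -0.13 and extremes at MRPS24 (-1.85, interval -5.38 to 0.38) and MRPS36 (1.19, interval -0.37 to 2.74). ICT1 is part of the same ribosome but is not counted in this list.

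Of 18 mitochondrial aminoacyl-tRNA synthetase and amidotransferase genes 0 were higher and 4 lower with cycloheximide. The lowest was WARS2, which charges tryptophan tRNA, at -2.09 (interval -4.91 to -0.22), and HARS2, which charges histidine tRNA, was lowest among the 12 that passed the filter, at -2.04 (-3.41 to -0.93). With harringtonine 4 were lower and 0 higher. The lowest was QRSL1, an amidotransferase subunit, at -1.97 (-4.33 to -0.28), and EARS2, which charges glutamate tRNA, was lowest among those that passed, at -1.70 (-3.18 to -0.49). QRSL1 was also the highest of the list with cycloheximide, at 0.49 (-0.28 to 1.22). The medians were -0.12 and -0.19.

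Of 21 accessory factors 1 was lower and 1 higher with cycloheximide. These were PDF, the mitochondrial peptide deformylase, at -2.79 (interval -7.57 to -0.31), and METAP1D, a mitochondrial methionine aminopeptidase, at 1.83 (-0.13 to 3.85), both below the filter. With harringtonine 1 was lower, MPV17L2 at -1.17 (-2.74 to 0.11), and 3 were higher, with MTG1 at the top at 2.15 (0.35 to 4.18). RMND1 was highest among the 17 that passed the filter, at 1.42 (0.18 to 2.69). The medians of all 21 were -0.28 with cycloheximide and -0.002 with harringtonine.

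The cytosolic counterparts of the factors, such as EEF1A1 and EEF2, were mostly below the median gene without reaching 2-fold. Of 11, 0 were called with either treatment, and the medians were -0.47 and -0.45. The lowest were EIF2S1 (-0.90, interval -1.40 to -0.42) with cycloheximide and EEF2 (-0.93, interval -1.06 to -0.80) with harringtonine, and EIF1AX was highest in both, at 0.29 and 0.44. EEF1A1 and EEF2 had higher densities than TUFM in every group. Centring within the decile of level, which moved TUFM from -0.06 to 0.17 with cycloheximide, was not applied to this list. TUFM does in mitochondria what EEF1A1 does in the cytosol. The density of TUFM was 0.142 of that of EEF1A1 (interval 0.131 to 0.153) for wild type against 0.189 (0.164 to 0.216) for knockout cells under cycloheximide. With harringtonine it was 0.117 (0.104 to 0.131) and 0.163 (0.135 to 0.196). The knockout ratio was thus the higher one in both treatments, with counting intervals that do not overlap.

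The mitochondrially encoded genes, whose mRNAs the 10 factors serve, lay on both sides of the median gene with cycloheximide. Their mRNAs are read by mitochondrial ribosomes, so their densities are not of the cytosolic ribosomes described above. Of 10, 4 were at least 2-fold lower and 1 higher. The lowest were MT-CO2 at -2.87 (interval -3.30 to -2.48), MT-ND6 at -2.52 (-2.77 to -2.28) and MT-CO1 at -2.13 (-2.23 to -2.03), and MT-ND4 was highest at 1.07 (0.87 to 1.27). With harringtonine 4 of the 10 gave no ratio, since MT-CO1, MT-CO2, MT-ND1 and MT-ND2 are listed at 0 in the single knockout library. MT-CO1 had a mean density of 127.5 in wild type there. The other 6 ranged from MT-CO3 at 0.39 (-0.08 to 0.84) to MT-ND6 at 1.00 (0.80 to 1.20). What lies behind the listed 0 values, or behind the opposite signs of MT-ND6 in the 2 treatments, was not tested. The intervals cover counting error only. MT-CO1, MT-ND1, MT-ND2 and NARS2 were named after their values were seen.

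**Figure D5:**
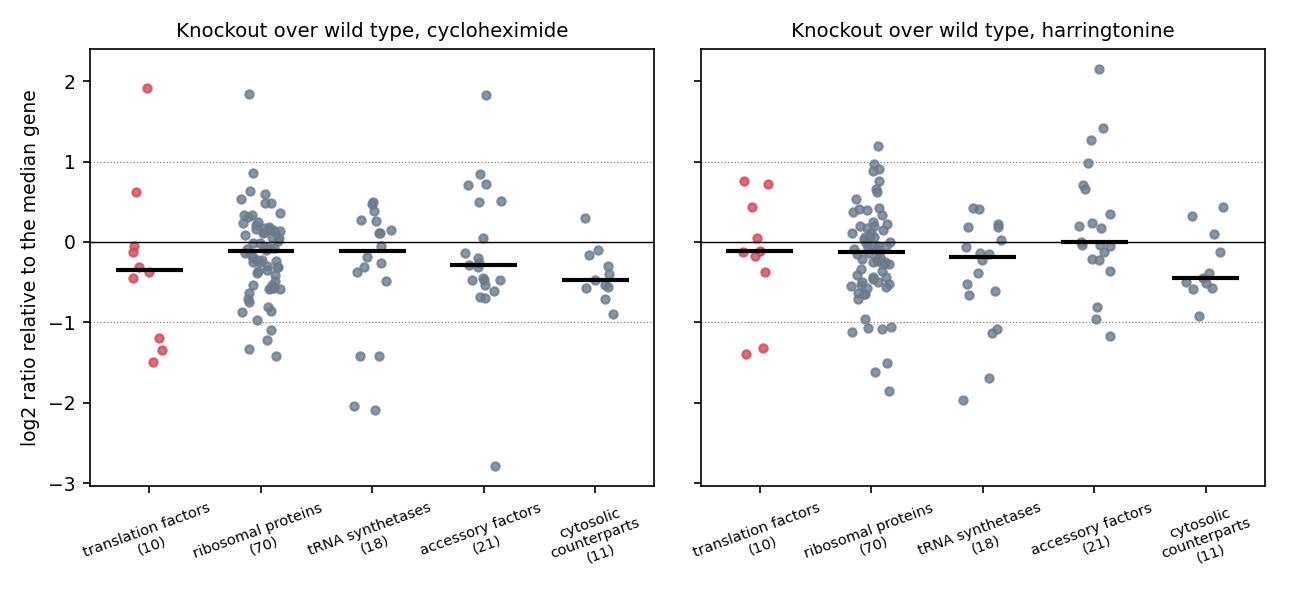
Log2 ratio of knockout over wild type relative to the median gene, with 1 point per gene and a bar at the median, for the 10 factors and 4 lists of other genes, over every listed gene with 4 means above 0 (number of genes in brackets). Dotted lines mark 2-fold. The medians with cycloheximide are -0.34 for the factors, -0.12 for synthetases, -0.28 for accessory factors and -0.47 for cytosolic counterparts.

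The authors' deposited table also gives a value named TE for each knockout comparison, which the header does not expand. In the authors' deposited table TE minus LFC, the log2 of wild type over knockout, was the same number for both treatments in 12241 of 12241 rows, within 1e-06. TE thus adds 1 term per gene to LFC that does not depend on the treatment. Over the genes compared this term had a median of 0.01 in the authors' deposited table, with 5% of genes below -0.33 and 5% above 0.30.

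For the factors that term was small next to the LFC of TSFM and ICT1. In the authors' deposited table TSFM had an LFC of 1.64 and a TE of 1.71 with cycloheximide, and 1.68 and 1.76 with harringtonine. ICT1 had an LFC of 1.79 and a TE of 1.79, then 1.60 and 1.60, in the authors' deposited table. A TE above that of TSFM was found in 1.77% of the genes compared with cycloheximide and 2.73% with harringtonine, from the authors' deposited table. The term was lowest for TUFM at -0.24 and highest for GFM1 at 0.23 and MTIF3 at 0.21 in the authors' deposited table. It left TUFM with a TE of 0.26 and 0.16, below the medians of 0.45 and 0.28 over the genes compared in the authors' deposited table.

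Several factors overlap other genes, and the sources used here do not say whether counting used the strand. By their coordinates 5 of the 10 overlap another listed gene and 5 overlap none. TSFM overlaps AVIL on the opposite strand over 10696 bases, and AVIL had mean densities between 0.0351 and 0.0578 over the 4 groups, all under those of TSFM. It also overlaps RP11-571M6.15 on its own strand over 4458 bases, listed at 0 in both wild-type groups. MTIF3 shares 183 bases with GTF3A, MRRF 237 with RBM18, and GFM1 has LXN within it, all on opposite strands. GFM2 shares 380 bases with NSA2, also on the opposite strand. GTF3A had 0.101 (wild type) and 0.0180 (knockout) under cycloheximide. The densities of AVIL and GTF3A are for whole genes and do not show where reads in the shared bases were counted. Whether such reads entered the values of the overlapping factors was not tested. TUFM, MTIF2, MTRF1, MTRF1L and ICT1 overlap no listed gene.

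The genes whose pattern over the 4 group means was nearest to TSFM were BMS1, FAM98A and SPAG7, at Euclidean distances of 0.54, 0.61 and 0.66 in log2 density centred per group. Their relative knockout ratios were -0.84, -0.78 and -0.79 with cycloheximide and -0.87, -1.70 and -0.91 with harringtonine, which follows from how they were chosen. Nearest to TUFM were CCT2, MRPL51 and PEBP1, at 0.15, 0.17 and 0.23. With 4 values per gene these are descriptions of likeness only.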

How the data were processed

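TopHat and the hg19 build are named in the submitters' processing notes, and neither how reads were counted nor the gene annotation is stated. Per the file headers, the authors deposited average ribosome densities per group (a signal that is never negative; the knockout columns hold the same signal beside error cells), the longest transcript length, and LFC and TE columns. These last are entered as a score and are log2 values, the authors' LFC being wild type over knockout.

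Rows without a knockout value (918), on alternate sequences (290) or whose LFC missed the log2 ratio of the deposited means by over 1e-06 (175) were not used. Of 12091 genes with all 4 means above 0, the 6045 with a geometric mean density above 0.114 were compared. The value of 1 read came from repeated low products of density and length, of which 5, 3, 3 and 1 were found. In the single-library column 8.13% of 7575 genes with under 10 effective reads came out whole within 0.01, and 7.54% of genes had under 1 effective read. The listed length is thus often not the one used, and effective reads and intervals are approximate; ratios between groups are unaffected.

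Intervals are Clopper-Pearson at 95% (normal approximation for differences of ratios) and cover counting error only. They were tested on simulated counts whose true length was the listed one, so that test does not cover lengths that differ. Named were all 10 members, CNBP, the extremes of each list with and without the filter, the 3 genes nearest to TSFM and TUFM, listed cell markers and, after their values were seen, EEF1A1 and the overlapping genes. Members and lists were chosen with earlier results of these data known. Python 3.11.15, pandas 2.3.3 and SciPy 1.17.1 were used. Alternatives were no centring, upper-quartile scaling, centring by level, a pseudocount of 1, no filter and a filter at a density of 1.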

Additional observations from a re-analysis of the deposited data

Results flagged for a closer look

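The knockout ratio of MRRF differed between the treatments by 2.25 on the log2 scale (counting interval 0.21 to 4.29), being higher with harringtonine. It was picked out because its counting interval is clear of 0 and the size is above 2-fold. The difference was not tested against the spread between libraries, and the low side rests on 4.01 effective reads in the knockout with cycloheximide.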

How the results depend on the processing

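Across 300 combinations of a member's ratio with an alternative, 292 stayed within that ratio's counting interval and 8 moved out of it. The sign differed in 21, none of them a ratio of at least 2-fold. Many of the intervals are wide, so staying within one does not mean that a call was kept. The cycloheximide knockout ratio of ICT1 stayed within its interval at -0.37 with a pseudocount of 1. That of TSFM did so at -0.96 when centred on genes above a mean density of 1. With a pseudocount of 1, which exceeds the density of most members, 0 members were called in any comparison, against 3 lower and 1 higher with cycloheximide, 2 lower with harringtonine, 1 higher for harringtonine over cycloheximide in wild type, 1 higher and 1 lower in the knockout, and 2 higher and 1 lower for the difference between treatments. Without centring, members at least 2-fold higher with harringtonine over cycloheximide numbered 2 in wild type and 2 in the knockout. Centred on the 721 genes above a mean density of 1, of which 1 is a member, 1 was higher for the difference between treatments. No paired analysis was possible because the table holds only group means. For the same reason leaving out a replicate was not run. Counting the other lists without the filter on low values, an alternative chosen after seeing the data, took the synthetase genes at least 2-fold lower in the knockout from 1 to 4 with cycloheximide and from 2 to 4 with harringtonine, and the mitochondrially encoded ones from 1 to 4 with cycloheximide. Depth limits MTIF3 with harringtonine (1.57 and 4.14 effective reads), MRRF (4.01) and ICT1 (7.11 and 4.82) in the knockout, and MTIF3 with cycloheximide (13.1 and 16.1).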
